A study of Mus musculus with 56 samples.

Results

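The genes described here are the myogenic regulators and satellite cell genes of mouse gastrocnemius, a calf muscle: Pax7, Myf5, Myod1, Myog, Myf6, Cdh15, Mef2a, Mef2c and Mef2d. They were chosen by name, by matching the gene identifiers of the deposited table, and all 9 were found among its 19072 genes. Muscle came from female C57BL/6J mice, 7 weeks old at the start and 9 weeks old at collection, kept under lights for 12 h and in darkness for 12 h. After 7 days of free feeding the mice had 7 days of daytime-restricted feeding (DRF, food in the light phase) or of nighttime-restricted feeding (NRF, food in the dark phase, in which mice are normally active). The labels name no transgene and no drug, and they do not state the clock hours of food access. Muscle was collected every 4 h from zeitgeber time (ZT, hours from lights on) 0 to 24, with 4 libraries in each of the 14 groups. The 56 libraries are taken as separate samples. The labels do not say that they came from separate animals, so a p-value measures only the spread between these libraries.

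Pax7, a paired-box factor, marks the satellite cell, the stem cell that lies beside the muscle fibre. Myf5, MyoD (Myod1), myogenin (Myog) and Mrf4 (Myf6) are basic helix-loop-helix factors that bind DNA at E-boxes together with E-proteins and switch on the muscle programme in turn: Myf5 and MyoD in activated cells, myogenin as cells differentiate, Mrf4 in the finished fibre. Cdh15 encodes M-cadherin, an adhesion molecule between the satellite cell and the fibre. Mef2a, Mef2c and Mef2d encode MADS-box factors that act with the helix-loop-helix factors on muscle promoters, and in fibres they are controlled by histone deacetylases and calcium-dependent kinases. MyoD is also made in adult fibres, mostly fast ones, and its transcript is known to follow the circadian clock.

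Levels are CPM, the reads recovered from the deposited scores for each 1000000 reads of the library size that the scores imply, and group values are means ± SD (n = 4). Tests were run on log2(CPM + 1) with limma over 12025 genes with a mean of at least 1 CPM, all 9 genes included, and adjusted by Benjamini-Hochberg with a threshold of 0.05. The libraries held 28173235 to 36183625 reads, and the 10 most abundant genes took 19.5% to 32.8% of them. Every one of the 9 genes came out in whole reads in all 56 libraries. The lowest was Myf5 with 49 reads in its lowest library, and the highest Mef2c with 28545 reads in its highest.

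Compared per length, as CPM per 1000 bases, Myf6 was the most abundant of the 9 genes, with 68.9 ± 13.8 in DRF and 65.6 ± 18.5 in NRF (SD over 28 libraries of a regimen, all times pooled). Mef2d followed with 47.5 in DRF and 46.3 in NRF, and Mef2c with 38.25 in DRF and 44.2 in NRF. Myod1 stood at 18.15 in DRF and 18.9 in NRF, Mef2a at 9.72 in DRF and 10.7 in NRF, Myog at 6.61 in DRF and 7.17 in NRF, and Cdh15 at 6.53 in DRF and 6.28 in NRF. Myf5 (1.09 in DRF, 1.21 in NRF) and Pax7 (0.678 in DRF, 0.781 in NRF) were the lowest. The fibre markers Ckm, Acta1, Myh4 and others summed to between 157807 and 216616 CPM in the DRF groups and between 127873 and 192761 CPM in the NRF groups, and all 10 were present. The satellite cell markers summed to 161 to 192.0 CPM in DRF and 149 to 204 CPM in NRF, and 1 of the 10 had a mean under 1 CPM. Most of this sum was Itga7 (mean 95.2 CPM) and Sdc4 (31.4 CPM), while Pax7 averaged 4.27 CPM and Myf5 2.40 CPM. Whether satellite cells were the source of that RNA was not tested. In such bulk libraries fewer satellite cells and less RNA per satellite cell cannot be told apart.

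The 9 genes stand apart in the genome except for one pair (build GRCm38.p6). Myf5 (gene 17877, chromosome 10, 107482908 to 107486927) and Myf6 (17878, 107492848 to 107494723) are neighbours on one strand, with 5920 bases between them. Myod1 (17927) lies on chromosome 7 at 46376474 to 46379092, and Mef2a (17258) on the same chromosome at 67231163 to 67376456. Myog (17928) lies on chromosome 1 at 134290004 to 134292548, Pax7 (18509) on chromosome 4 at 139737059 to 139833530, Cdh15 (12555) on chromosome 8 at 122848374 to 122867397, Mef2c (17260) on chromosome 13 at 83504017 to 83667079 and Mef2d (17261) on chromosome 3 at 88141941 to 88172091. In GENCODE vM21 another gene overlaps Cdh15 on its strand, Mef2d on the other strand, and Mef2a on both. Reads from antisense or overlapping transcripts could not be separated by the protocol, which names no step that marks the strand.

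The RefSeq promoter table (GRCm38.p6, 250 bases before to 50 after a start) holds entries for 7 of the 9 genes. The Myog and Mef2a promoters are shown because Myog is a textbook target of MyoD and of MEF2 factors, and because Mef2a carries a MEF2-like core. Capitals mark every E-box (CANNTG) and every MEF2-like core (CTA, then any 4 bases, then TAG), each of which reads the same on both strands. The middle bases of the core were not limited to A and T, and sites with another ending than TAG were not searched for. A promoter with no marked core, such as that of Myog, is thus not shown to lack a MEF2 site.
Myog promoter, chr1:134289754-134290053, plus strand: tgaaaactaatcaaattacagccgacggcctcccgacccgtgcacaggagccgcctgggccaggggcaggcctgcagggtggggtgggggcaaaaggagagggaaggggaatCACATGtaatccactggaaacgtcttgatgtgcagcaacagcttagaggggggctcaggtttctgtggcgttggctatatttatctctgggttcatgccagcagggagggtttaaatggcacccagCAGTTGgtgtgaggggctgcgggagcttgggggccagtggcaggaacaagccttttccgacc
Mef2a promoter, chr7:67372809-67373108, minus strand: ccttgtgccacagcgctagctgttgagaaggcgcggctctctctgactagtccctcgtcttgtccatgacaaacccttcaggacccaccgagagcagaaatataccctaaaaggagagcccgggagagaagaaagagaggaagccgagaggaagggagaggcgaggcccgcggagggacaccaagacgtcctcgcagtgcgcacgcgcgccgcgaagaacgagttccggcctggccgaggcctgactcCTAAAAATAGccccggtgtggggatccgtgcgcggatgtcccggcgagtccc
Positions are counted from the transcript start of each promoter entry, and the Mef2a and Myf5 entries lie inside the gene spans given above. Myog holds E-boxes that start at positions -138 and -12. Mef2a holds no E-box and 1 MEF2-like core that starts at position -2. Of all 32851 RefSeq promoters, 72.3% hold an E-box and 3.69% the MEF2-like core. Myf5 holds a MEF2-like core, CTAGGTTTAG, at position -182. Cdh15 holds 4 E-boxes, and the one at position -32 is CACGTG, the form that clock factors are known to bind, which 7.15% of promoters hold.

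Myod1 changed most of the 9 genes between regimens and over the day. In NRF it had 1 broad high from ZT16 to ZT0 and a low at ZT8 and ZT12, whereas in DRF it had highs at ZT4 and again at ZT16 to ZT20, with lows at ZT8 and ZT24. At ZT0 its values were 16.3, 25.3, 27.1 and 33.4 CPM in DRF and 52.5, 52.8, 51.1 and 40.6 CPM in NRF. All 4 DRF libraries lay below all 4 NRF libraries (log2 difference -0.96 ± 0.20 SE, adjusted p = 0.00459 by limma). At ZT4 the order was turned round, with 42.9, 37.3, 45.1 and 45.8 CPM in DRF and 21.6, 27.9, 23.4 and 16.7 CPM in NRF. Again the groups did not overlap (0.92 ± 0.20, adjusted p = 0.00862 by limma). At ZT12 it had 31.1, 24.2, 20.8 and 33.1 CPM in DRF and 14.1, 14.1, 11.5 and 12.5 CPM in NRF, and DRF was higher without overlap (0.99 ± 0.20, adjusted p = 0.00434 by limma). At ZT24 it had 21.4, 25.2, 16.3 and 20.3 CPM in DRF and 27.0, 42.0, 54.0 and 46.8 CPM in NRF. DRF was lower there without overlap (-0.97 ± 0.20, adjusted p = 0.00184 by limma).

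**Figure D1:**
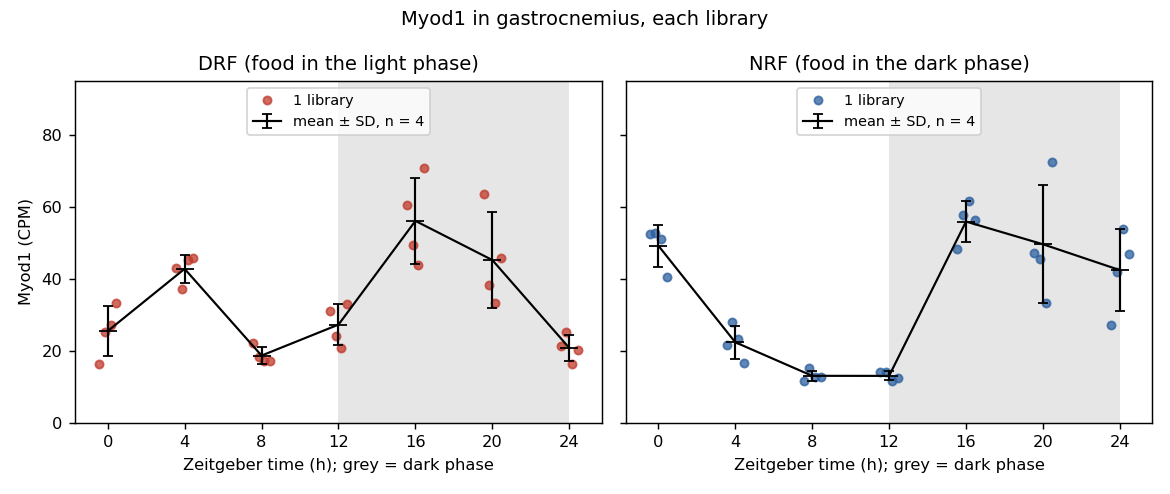
Myod1 in CPM (vertical axis, linear) in each library against zeitgeber time in hours, DRF on the left and NRF on the right; coloured points are libraries, black bars the mean ± SD of 4, grey the dark phase. DRF has highs at ZT4 (42.8 CPM) and ZT16 (56.1 CPM) and NRF a single low at ZT8 and ZT12 (13.1 and 13.0 CPM).

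At the other times the Myod1 test was not passed. At ZT8 the groups did not overlap either, with 22.1, 18.3, 17.1 and 17.2 CPM in DRF and 11.6, 15.1, 12.7 and 12.7 CPM in NRF, but the adjusted p was 0.494 (0.48 ± 0.20). At ZT16 the means were 56.1 ± 12.1 CPM in DRF and 55.9 ± 5.61 CPM in NRF, and at ZT20 45.2 ± 13.2 in DRF and 49.6 ± 16.4 in NRF. The ZT0 call ended without replicate 1 of DRF at ZT0 (adjusted p = 0.0640) and the ZT4 call without replicate 4 of NRF at ZT4 (0.0808).

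Ranked by mean, the 14 groups ran from DRF at ZT16 (56.1 CPM) through NRF at ZT16, ZT20 and ZT0, DRF at ZT20 and ZT4, and NRF at ZT24 (42.4 CPM), then DRF at ZT12 and ZT0, NRF at ZT4, DRF at ZT24 and ZT8, down to NRF at ZT8 (13.1 CPM) and ZT12 (13.0 CPM). Each group overlapped the next one in this order, except DRF at ZT8 and NRF at ZT8. The highest mean was 3.003-fold the lowest in DRF and 4.29-fold the lowest in NRF, and the change over time passed in DRF (adjusted p = 3.9e-08 by limma) and in NRF (2.155e-13).

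The fitted 24 h curve of Myod1 had a trough-to-peak range of 0.91 ± 0.27 log2 units in DRF, with a peak at ZT17.4 ± 1.00 h (adjusted p = 0.0162 by limma), and of 2.22 ± 0.26 in NRF, with a peak at ZT20.4 ± 0.429 h (adjusted p = 8.95e-09). The curves differed between regimens (difference in trough-to-peak range -1.31 ± 0.37 and in peak -2.99 ± 1.09 h, DRF minus NRF, adjusted p = 0.00196 by limma), and this held in all 14 alternatives and with any 1 library left out. The DRF rhythm ended with library weights (trough-to-peak range 0.54, adjusted p = 0.222) and with total-count scaling (0.73, adjusted p = 0.0673). A component of 12 h, added after both highs in DRF were seen, had a trough-to-peak range of 1.198 ± 0.19 in DRF with highs at ZT4.49 and 12 h after that (adjusted p = 0.000885), and of 0.62 ± 0.19 in NRF (adjusted p = 0.0927). The 12 h component passed in 1.66% of genes in DRF and in 4.44% in NRF, and the test of its difference between regimens, which 0.00832% of genes passed, was missed for Myod1 (0.58 ± 0.27, adjusted p = 0.439).

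Counted from the start of the phase in which food was given, which is ZT0 in DRF and ZT12 in NRF, Myod1 stood at 25.5 CPM in DRF and 13.0 CPM in NRF at 0 h and at 42.8 in DRF and 55.9 in NRF after 4 h. After 8 h it stood at 18.7 in DRF and 49.6 in NRF, after 12 h at 27.3 in DRF and 49.3 in NRF, after 16 h at 56.1 in DRF and 22.4 in NRF, and after 20 h at 45.2 in DRF and 13.1 in NRF. These values are set side by side with no test.

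Myog, the factor of differentiation, varied like Myod1 in NRF. At ZT0 it had 13.1, 7.61, 14.9 and 13.2 CPM in DRF and 41.1, 18.8, 15.3 and 10.9988 CPM in NRF, with means of 12.2 ± 3.16 CPM in DRF and 21.5 ± 13.4 CPM in NRF. The groups overlapped there, and NRF replicate 1 was the highest of all. At ZT4 it had 11.9, 8.39, 18.4 and 12.9 CPM in DRF and 8.39, 6.34, 7.18 and 7.10 CPM in NRF, which overlap (0.71 ± 0.28, adjusted p = 0.270). At ZT8 it averaged 7.91 ± 0.910 CPM in DRF and 5.49 ± 1.47 CPM in NRF. Its 24 h trough-to-peak range was 0.26 ± 0.24 log2 units in DRF (adjusted p = 0.617) and 1.27 ± 0.25 in NRF, with a peak at ZT21.3 (adjusted p = 0.000544 by limma). Without replicate 1 of NRF at ZT0 the NRF rhythm was 1.13 (adjusted p = 0.000734). The difference between regimens, -1.02 ± 0.35, missed the threshold (adjusted p = 0.0875), so a rhythm that differs between regimens is not shown for Myog.

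Myf6, the factor of the mature fibre, was rhythmic in both regimens. At its highest time, ZT20, it had 119.8, 97.4, 97.9 and 106 CPM in DRF and 153, 103, 118 and 123 CPM in NRF, which overlap. At ZT8 it had 71.1, 79.9, 79.5 and 76.8 CPM in DRF and 58.8, 57.8, 59.4 and 60.9 CPM in NRF, which do not overlap, but the difference missed the threshold (0.37 ± 0.16, adjusted p = 0.523). The fitted trough-to-peak range was 0.46 ± 0.12 log2 units in DRF with a peak at ZT21.3 (adjusted p = 0.00722) and 0.85 ± 0.13 in NRF with a peak at ZT18.9 (adjusted p = 1.03e-05). The difference between the curves missed the threshold (-0.39 ± 0.18, adjusted p = 0.0901), and it passed with total-count scaling (0.0303), with library weights (0.0184) and with the gene-length trend removed (0.0451). Replicate 1 of DRF at ZT0 stood high, at 129 CPM, against 77.8 to 83.1 CPM in the other 3.

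Mef2c and Mef2a changed over the day in DRF (adjusted p = 0.00374 and 0.00923 by limma), both with their lowest mean at ZT24, and they have the longest transcripts of the set. Mef2c averaged 782 ± 117 CPM at ZT8 and 461 ± 102 CPM at ZT24 in DRF, and between 564 and 738 CPM in all NRF groups. Its values at ZT24 were 419, 559.9, 528 and 337 CPM in DRF and 832, 564, 635 and 768 CPM in NRF. All DRF libraries lay below all NRF libraries (-0.61 ± 0.17, adjusted p = 0.0239 by limma). The call ended without replicate 1 or replicate 4 of either regimen at ZT24 (adjusted p 0.0790 to 0.166). It also ended on a log2 scale of the deposited scores (adjusted p = 0.0586). At ZT0, the same hour of the light cycle, the difference had the other sign and was not called (0.13 ± 0.17, adjusted p = 0.828 by limma). The ZT0 means of Mef2c were 605 ± 46.1 CPM in DRF and 564 ± 131 CPM in NRF. The 24 h trough-to-peak range of Mef2c was 0.61 ± 0.14 in DRF, with a peak at ZT9.03 (adjusted p = 0.00162), and 0.16 ± 0.13 in NRF (adjusted p = 0.689). The test of the difference was missed (adjusted p = 0.169), and it passed in 2 of 14 alternatives (adjusted p 0.0204 to 0.293 over all of them, by limma).

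Mef2a, the other MEF2 gene with a long transcript, had 177, 188, 132 and 193 CPM in DRF and 177, 178, 138 and 138 CPM in NRF at ZT8, which overlap. At ZT24 it had 115, 137, 135 and 81.3 CPM in DRF and 186, 140.1, 144 and 174 CPM in NRF. All DRF libraries lay below all NRF libraries there, but the threshold was missed (-0.47 ± 0.17, adjusted p = 0.0789). Mef2a averaged 173 ± 27.9 CPM at ZT8 and 117 ± 25.8 CPM at ZT24 in DRF, and between 146 and 168 CPM in the NRF groups. Its 24 h trough-to-peak range was 0.53 ± 0.13 in DRF, with a peak at ZT8.55 (adjusted p = 0.00346 by limma), and 0.15 ± 0.13 in NRF (adjusted p = 0.721). The difference was missed (0.38 ± 0.18, adjusted p = 0.0858). It passed in 4 of 14 alternatives (adjusted p 0.000652 to 0.223 over all of them, by limma) and with 3 of 56 single libraries left out. Over the 7 DRF group means Mef2a and Mef2c correlated at r = 0.964, and over the 7 NRF group means at r = -0.04, given as a description of points that share libraries. Over all 14 groups r was 0.853.

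Long genes stood low in several DRF libraries, in some of which Mef2a and Mef2c were low and in others not. In a library's deviation from the mean of all libraries, the Spearman correlation with gene length averaged -0.14 in DRF at ZT12, -0.20 at ZT16, -0.19 at ZT20 and -0.13 at ZT24, and between -0.01 and 0.19 in the NRF groups. From the lowest up, it was -0.37 in replicate 1 of DRF at ZT20, which held 66.4 CPM of Mef2a and 339 CPM of Mef2c. Next came replicate 3 of DRF at ZT16 (-0.33), with 99.0 CPM of Mef2a and 515.5 CPM of Mef2c. Replicate 4 of DRF at ZT24 (-0.31) held 81.3 CPM of Mef2a and 337 CPM of Mef2c. Replicate 1 of DRF at ZT16 (-0.30) held 123.9 CPM of Mef2a and 543 CPM of Mef2c. Replicate 4 of DRF at ZT12 (-0.29) held 162.5 CPM of Mef2a and 664 CPM of Mef2c. Replicate 3 of NRF at ZT24 (-0.28) held 144 CPM of Mef2a and 635.5 CPM of Mef2c. The means over all libraries were 149.5 CPM for Mef2a and 648 CPM for Mef2c. The DRF means at ZT12, 170.0 CPM for Mef2a and 698 CPM for Mef2c, lay above these. With the gene-length trend removed the DRF trough-to-peak range was 0.42 for Mef2a (adjusted p = 0.00175) and 0.51 for Mef2c (0.00165). Without replicate 1 of DRF at ZT20 it was 0.40 for Mef2a (0.0141) and 0.53 for Mef2c (0.00567).

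Mef2d, the third MEF2 gene, moved little. It ranged between 262 and 314 CPM over the DRF group means and between 260.0 and 309.8 CPM over the NRF group means. In DRF the 24 h rhythm passed with a trough-to-peak range of 0.23 ± 0.07 and a peak near lights on, at ZT0.573 (adjusted p = 0.0126), and the call ended without the ZT24 libraries (0.0779) and on a log2 scale of the deposited scores (0.0517). In NRF it was 0.06 ± 0.07 (adjusted p = 0.849).

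Pax7, Myf5 and Cdh15 had no 24 h rhythm past the threshold in either regimen, though with total-count scaling Pax7 passed in DRF (adjusted p = 0.0347) and Cdh15 in NRF (0.0173). Of the satellite cell markers, a list that includes these 3 genes, 4 of 9 tested were rhythmic in DRF (48.7% of all genes were) and 3 of 9 in NRF (15.1%). Pax7 ranged from 2.98 ± 0.490 CPM at ZT16 to 4.83 ± 0.678 CPM at ZT12 in DRF and from 3.81 ± 1.12 CPM at ZT16 to 5.16 ± 0.816 CPM at ZT4 in NRF. At ZT16, its lowest time in both regimens, it had 2.85, 2.78, 3.69 and 2.58 CPM in DRF and 3.08, 3.17, 3.495 and 5.47 CPM in NRF, which overlap. Its 24 h trough-to-peak range was 0.29 ± 0.13 in DRF (adjusted p = 0.135) and 0.29 ± 0.13 in NRF (adjusted p = 0.257). Myf5 ranged from 1.97 ± 0.204 CPM at ZT20 to 2.79 ± 0.681 CPM at ZT0 in DRF and from 2.07 ± 0.266 CPM at ZT20 to 3.10 ± 0.381 CPM at ZT0 in NRF, and it overlapped between regimens at every time but ZT16 (-0.23 ± 0.12, adjusted p = 0.196). At ZT16 Cdh15 had 18.8, 21.2, 24.5 and 20.1 CPM in DRF and 16.6, 13.7, 18.5 and 18.4 CPM in NRF. DRF was higher without overlap, but the threshold was missed (0.32 ± 0.11, adjusted p = 0.0618). Cdh15 ranged from 18.6 ± 2.89 CPM at ZT0 to 24.5 ± 1.24 CPM at ZT20 in DRF and from 16.8 ± 2.26 CPM at ZT16 to 25.3 ± 4.45 CPM at ZT20 in NRF. It changed over time in NRF (adjusted p = 0.00347 by limma), and its 12 h component passed there (0.41 ± 0.10, adjusted p = 0.0239), but 5 of the 56 single libraries left out ended that call, with an adjusted p up to 0.101 without replicate 4 of NRF at ZT20.

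**Figure D2:**
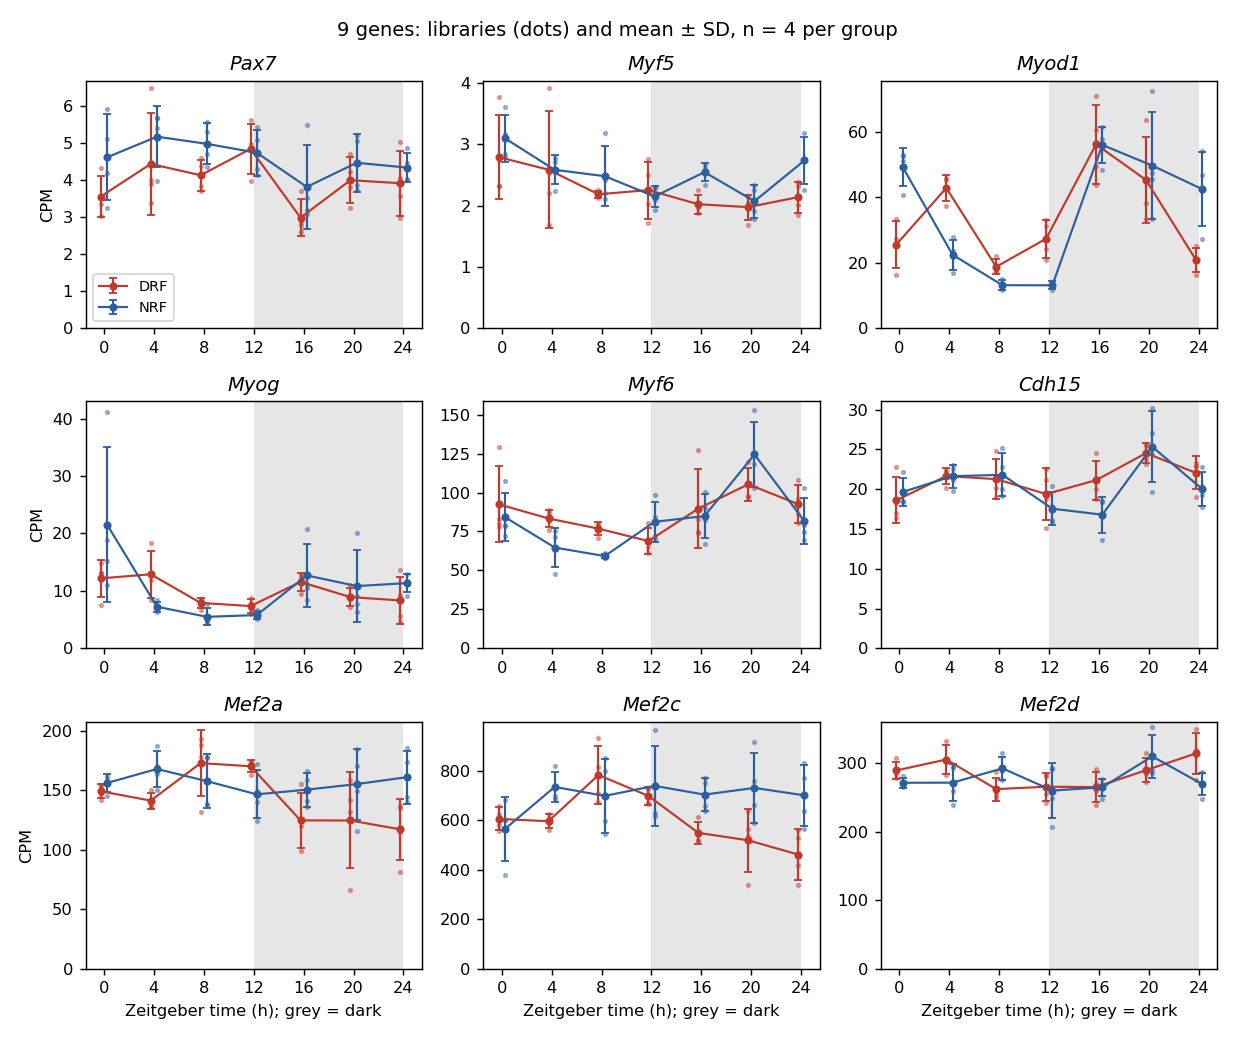
The 9 genes in CPM (linear axes from 0) against zeitgeber time in hours, DRF in red and NRF in blue; dots are libraries and lines the mean ± SD of 4, grey the dark phase. Myod1 differs most between regimens, and Mef2a and Mef2c fall in DRF after ZT12.

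Of the 9 genes, Myod1 passed the test of DRF against NRF at ZT0 (1.85% of all genes passed), ZT4 (0.973%), ZT12 (3.5%) and ZT24 (5.56%), and Mef2c also at ZT24. No gene of the set passed at ZT8 (0.208%), ZT16 (10.8%) or ZT20 (2.96%). Groups of 4 that did not overlap were more frequent, with the share of all genes in parentheses: 1 of the 9 genes at ZT0 (7.98%), 4 at ZT4 (9.72%), 2 at ZT8 (4.65%), 1 at ZT12 (10.5%), 3 at ZT16 (18.3%), 0 at ZT20 (6.18%) and 3 at ZT24 (12.2%). Those at ZT4 were Myod1 and Myf6, higher in DRF, and Mef2a and Mef2c, lower in DRF.

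**Figure D3:**
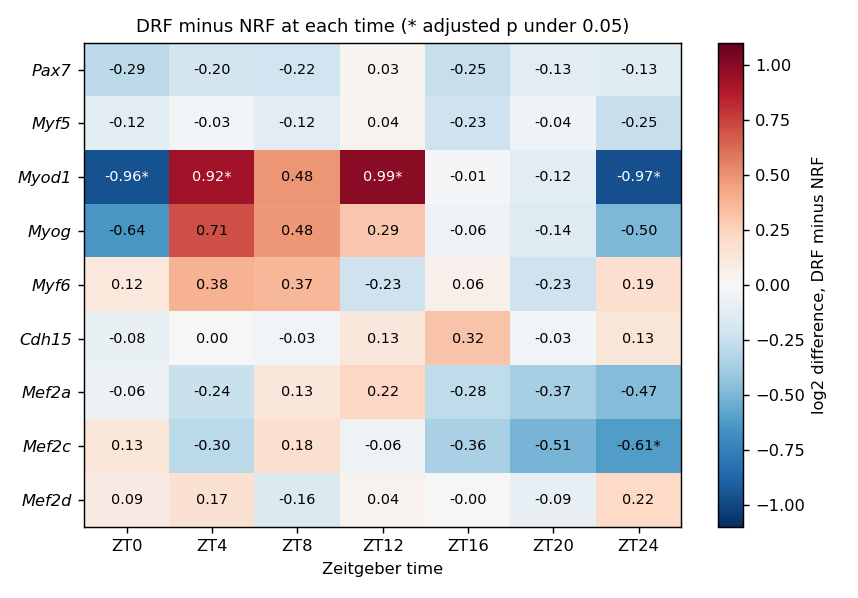
log2 difference in log2(CPM + 1), DRF minus NRF, for the 9 genes (rows) at 7 zeitgeber times (columns), red where DRF is higher and blue where it is lower, with an asterisk where the adjusted p was under 0.05. Myod1 runs from -0.97 at ZT24 to 0.99 at ZT12 and holds 4 of the 5 asterisks.

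Over time 6 of the 9 genes changed in DRF (47.2% of all genes did) and 4 in NRF (19.7%): Pax7, Myod1, Myf6, Mef2a, Mef2c and Mef2d in DRF, and Myod1, Myog, Myf6 and Cdh15 in NRF. A 24 h rhythm passed for 5 of 9 in DRF (48.7% of all genes) and for 3 of 9 in NRF (15.1%), and Myod1 and Myf6 passed in both (9.37%). The rhythm differed between regimens for 1 of 9, Myod1 (13.1% of all genes). The Pax7 change in DRF was borderline (adjusted p = 0.0471) and ended without any of 26 single libraries, among them replicate 4 of DRF at ZT16 (0.123).

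**Figure D4:**
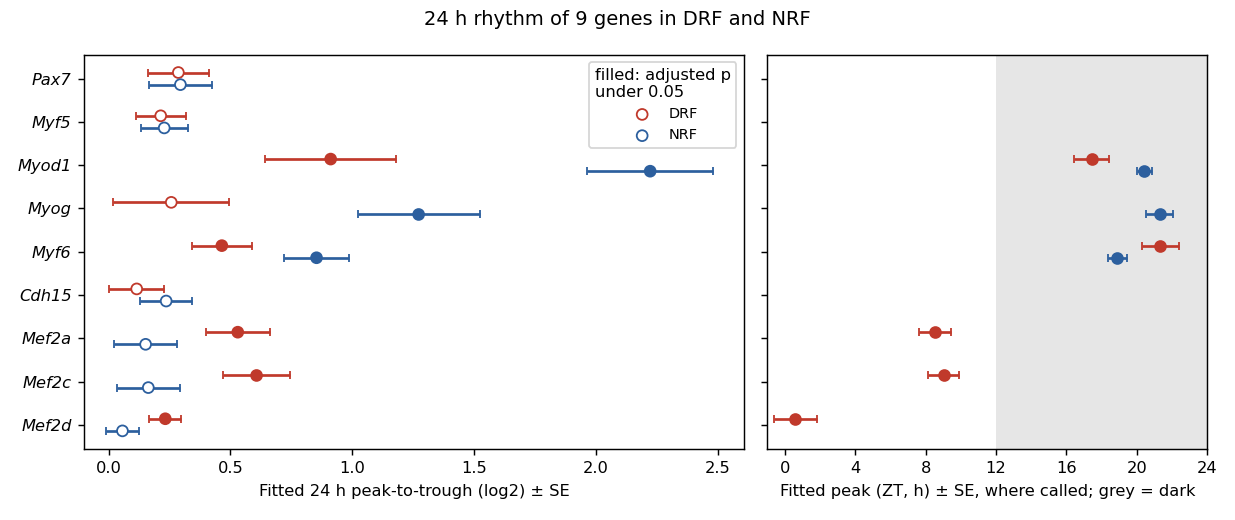
Fitted 24 h trough-to-peak range in log2 units (left) and fitted peak in hours of zeitgeber time (right) for the 9 genes, DRF in red above NRF in blue, with ± 1 SE; filled points passed the rhythm test and only those have a peak plotted. Myod1 has the largest value in each regimen.

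Averaged over the day on the log2 scale, Pax7 was lower in DRF (-0.17 ± 0.06, adjusted p = 0.0463), Myod1 higher (0.22 ± 0.08, adjusted p = 0.0479) and Mef2c lower (-0.21 ± 0.07, adjusted p = 0.0257), 3 of 9 genes where 15.9% of all genes passed (8.35% higher and 7.53% lower). These calls were weak. With the gene-length trend removed none of the 9 passed (adjusted p 0.125 for Pax7, 0.140 for Myod1 and 0.158 for Mef2c), and without replicate 1 of DRF at ZT20 none did. For Myod1 the plain mean over 28 libraries ran the other way, 33.8 CPM in DRF and 35.1 CPM in NRF, on the linear scale and with ZT0 and ZT24 each counted in full. Myog, which did not pass (0.12 ± 0.11, adjusted p = 0.487), had 9.88 CPM in DRF and 10.7 CPM in NRF. The median difference of all genes at ZT12 was -0.16 with total-count scaling and -0.01 without it, the widest gap of any time. With that scaling the 4 Myod1 calls at single times held, and 196 genes were higher and 3302 lower on average, against 1004 higher and 905 lower without it. ZT24 and ZT0 in a regimen were also compared: no gene of the 9 passed (smallest adjusted p 0.186 in DRF and 0.528 in NRF), and 0.274% of all genes passed in DRF and 0% in NRF.

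By meta2d, the authors' deposited table of rhythm tests gave Myod1 an adjusted p of 0.562 in DRF and 2.5e-05 in NRF. By that test 15.9% of its genes were under 0.05 in DRF and 7.16% in NRF. Also by meta2d, Myog had 0.00202 in NRF, Myf6 0.0710 in DRF and 8.9e-05 in NRF, and Mef2c 0.0196, Mef2d 0.0445 and Mef2a 0.217 in DRF. By JTK, another test of the authors, Myf6 in DRF was under 0.05 (adjusted p = 0.0436). The other values named here lay on the same side of 0.05 by JTK, with 0.205 for Myod1 in DRF.

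Over the 14 group means Myod1 and Myog correlated at r = 0.805 (0.591 over the 7 DRF means and 0.884 over the 7 NRF means), as a description. Among the 5 other genes whose group means were most like those of Myod1 were Ccdc134 (r = 0.912), Uts2r (0.907), a receptor for urotensin, Camk2n1 (0.898), an inhibitor of calmodulin-dependent kinase II, and Rpl7l1 (0.884). Ccdc134 averaged 23.4 CPM at ZT16 and 14.9 CPM at ZT8 in DRF, and 24.95 CPM at ZT16 and 10.7 CPM at ZT8 in NRF. For Myog the 3 most alike were Bpnt1 (0.933), a nucleotidase, Sertad4 (0.915) and Ccdc126 (0.898).

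**Figure D5:**
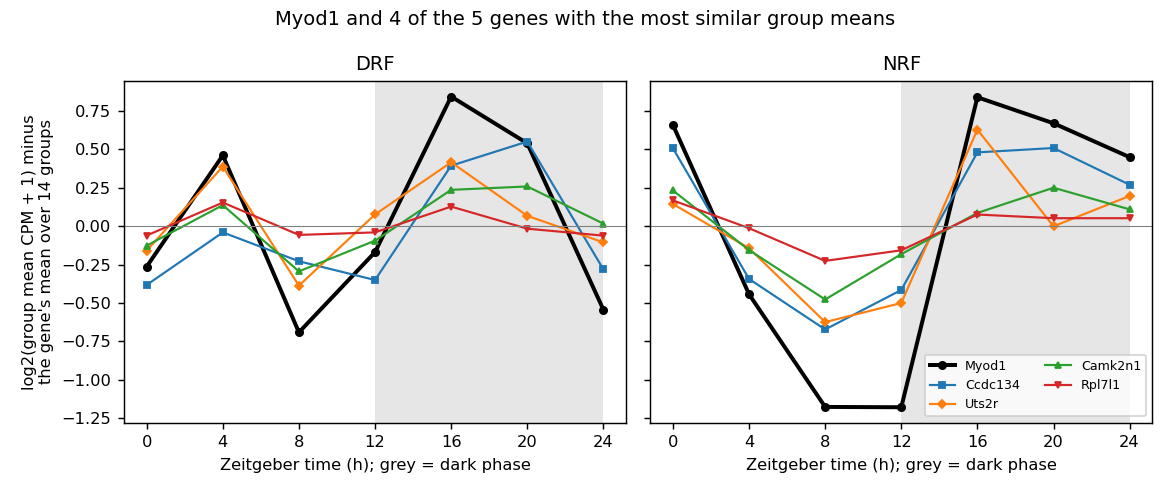
log2(group mean CPM + 1) minus the gene's own mean over 14 groups against zeitgeber time in hours, for Myod1 (black) and 4 of the 5 genes with the most similar group means, DRF on the left and NRF on the right, grey the dark phase. The 4 genes were chosen for this likeness (r = 0.884 to 0.912).

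Genes that act with these factors were counted in lists. The p of a rhythm difference tests the whole curve, range and peak together, and values given without a peak below are trough-to-peak ranges in log2 units. Of all genes 13.1% differed in rhythm, 8.35% were higher on average and 7.53% were lower. Among the E-proteins, Id proteins and other partners, 1 of 14 had a rhythm that differed between regimens, Tcf12, an E-protein (peak at ZT7.18 in DRF and ZT22.5 in NRF, adjusted p = 0.00598, with a difference in trough-to-peak range of 0.09 ± 0.07 log2 units). Its rhythm was not called in NRF (0.14, adjusted p = 0.137 by limma), so the NRF peak is of a fitted curve only. Tcf4, another E-protein, was lower on average in DRF (-0.19 ± 0.05, adjusted p = 0.0145). Of the upstream regulators (homeobox, Eya, paired-box and other genes) 3 of 14 differed: Pitx3, whose decimal reads make it uncertain (0.00428), Eya1 (0.03 in DRF and 0.63 in NRF, adjusted p = 0.0115) and Six5 (0.0153). Zfp637, a zinc finger gene of this list, was higher on average (0.16 ± 0.04, adjusted p = 0.00944). In the Notch pathway, which keeps satellite cells quiescent, 1 of 14 differed, the ligand gene Jag2 (0.33 in DRF and 0.07 in NRF, adjusted p = 0.0227), and Rbpj, its nuclear effector, was lower on average (-0.09 ± 0.03, adjusted p = 0.0429).

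Of the receptors and adhesion molecules 2 of 15 differed in rhythm, the growth factor receptors Fgfr1 (peak at ZT19.1 in DRF and ZT11.8 in NRF, adjusted p = 0.000967) and Met (peak at ZT8.21 in DRF and ZT11.4 in NRF, adjusted p = 0.0239), and 3 were lower on average: Itgb1 (uncertain, since its reads are decimal), Megf10 and Met. Of the MEF2 cofactors and kinases 3 of 18 differed: Camk2d, a calcium-dependent kinase (0.64 in DRF and 0.20 in NRF, adjusted p = 0.00198), Cabin1, a MEF2 repressor (0.00776), and Srf (0.00798). On average 1 was higher (Srf) and 2 were lower (Ep300 and Hdac9). Of the known targets of the myogenic factors 1 of 17 differed, Cav3, a caveolin of the fibre membrane (0.52 in DRF and 0.11 in NRF, adjusted p = 0.000736), and 4 were higher on average: Chrne, a subunit of the acetylcholine receptor (0.24 ± 0.05, adjusted p = 0.00323), Cav3 (0.16 ± 0.04, 0.00852), Ckm (0.24 ± 0.07, 0.0240) and Chrnb1, another subunit of that receptor, which was named after its value was seen. Of the known MEF2 targets 1 of 16 differed, Klhl40 (peak at ZT15.6 in DRF and ZT0.124 in NRF, adjusted p = 0.0325, with a difference in trough-to-peak range of -0.11 ± 0.11), and 1 was lower on average, Hdac9. The rhythm of Klhl40 was not called in DRF (0.16, adjusted p = 0.218 by limma), so its DRF peak is of a fitted curve only. The median difference on average ran from -0.0344 to 0.0913 log2 units over the 7 lists, beside -0.00143 over all genes.

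Markers of other cells varied too. Red blood cell genes summed to 428 to 775 CPM in the DRF groups and 296 to 461 CPM in the NRF groups, and 5 of 5 were higher on average in DRF (8.35% of all genes were). Of the fibre markers 4 of 10 were higher on average in DRF, and 6 of 10 were rhythmic in DRF (48.7% of all genes). Schwann cell genes summed to 149.96 to 579 CPM in DRF, highest at ZT24, and 194 to 357 CPM in NRF. Adipocyte genes summed to 4332 to 5713 CPM in DRF and 4430.0 to 6136 CPM in NRF, endothelial genes to 319 to 484 CPM in DRF and 357 to 487 CPM in NRF, and leukocyte genes to 78.3 to 136 CPM in DRF and 74.1 to 134 CPM in NRF. The part of these cells in the results above was not tested.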

How the data were processed

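RNA of 56 gastrocnemius libraries was sequenced, 4 in each of 14 groups of regimen and time. Per the submitters' processing notes, the tools were RSEM, HISAT2 and Bowtie2, and the builds GRCm38.p6 and mm10, with neither roles nor versions. The authors deposited a table headed TPM and, per regimen, a table of rhythm tests with p-values and phases, used here as they stand. The deposited values headed TPM are a score, which was read as a logarithm of scaled reads divided by gene length. Reads, library sizes and gene lengths were recovered by inverting that formula. Of 1924 values near 3 to 5 reads, which took no part in setting it, 1919 matched within a tolerance of 1e-07. Recovered reads are whole for 15334 of the 17443 genes with an answer, to a tolerance of 0.001 of a read, and 2109 genes have reads with 2 decimals. No sample column was left unused.

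CPM are recovered reads for each 1000000 of the library size implied by the scores, which is 0.854 to 1.21 times the recovered total. The plan had assumed TPM. Since the values are a score, log2(CPM + 1) was tested instead, with genes of at least 1 CPM on average, by limma 3.58.1 (R 4.3.3) with a mean-variance trend and Benjamini-Hochberg adjustment over 12025 genes at 0.05. All 14 groups entered each fit. The 24 h rhythm is a cosine and a sine per regimen, tested with moderated F tests. ZT0 and ZT24 count together as 1 time in the average over the day. The 12 h component and the comparison of ZT24 with ZT0 were added after the data were seen. The fits were tested on simulated counts with a common spread setting and no gene-length trend, so they were not tested against such a trend.

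The 9 genes and all lists were chosen with earlier results of these data known. Named genes are the 9 members, up to 3 genes of each list by the adjusted p of the rhythm difference and of the average, and the genes most like Myod1 (5, of which 1 is not reported here) and Myog (3). Replicate numbers name samples and do not pair them. Figures were drawn with matplotlib 3.10.9 in Python 3.11.15.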

Additional observations from a re-analysis of the deposited data

Results flagged for a closer look

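In 5 of the 126 groups of 4 libraries (9 genes in 14 groups) 1 library lay far from the other 3, where chance gives about 1 in 20. Pax7 in NRF at ZT4 had 3.95 CPM in replicate 4 and 5.38 to 5.66 CPM in the others. Myod1 in NRF at ZT0 had 40.6 CPM in replicate 4 and 51.1 to 52.8 CPM in the others. Myog in NRF at ZT8 had 7.67 CPM in replicate 4 and 4.45 to 4.99 CPM in the others. Myf6 in DRF at ZT0 had 129 CPM in replicate 1 and 77.8 to 83.1 CPM in the others. Cdh15 in DRF at ZT24 had 19.0 CPM in replicate 1 and 22.9 to 23.3 CPM in the others.

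The 24 h curve of Myod1 differed between regimens by a test of the difference itself, with a difference in trough-to-peak range, DRF minus NRF, of -1.31 log2 units (adjusted p = 0.00196 by limma).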

How the results depend on the processing

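No called result for a single gene changed sign under any alternative. Of the results not called, 34 took the other sign under at least 1 alternative or left-out library, none of them past the threshold on either side (smallest main adjusted p 0.296), among them the averages of Cdh15 (0.07, and -0.01 at its lowest) and Mef2d (0.02, and -0.06 at its lowest). Outside the left-out libraries 1994 values kept their side of the threshold, 31 lost a call and 54 gained one. The counts below are of the 9 genes called, unless given over all genes. Of 63 comparisons at single times 5 were called, 9 with library weights, and 7 with total-count scaling or without the 2 libraries of lowest weight. Over all genes, calls at single times rose too, from 3103 to 7425 with library weights, 4214 with total-count scaling and 4670 without those 2 libraries. Without the ZT24 libraries the 9 genes had 3 calls. The other 2 were lost by construction, since they lay at ZT24, which then has no test. Over all genes, which lose the same time, calls went from 3103 to 2177. The 3 calls on average became 1 with no filter on low genes or without the ZT0 libraries, and 0 with the gene-length trend removed or without the ZT24 libraries. Over all genes the calls on average went from 1909 to 1539, 1967, 939 and 1058 in that order. The 1 difference in 24 h rhythm became 2 with total-count scaling and 3 with library weights, with the length trend removed or without the ZT0 libraries. Differences in rhythm over all genes went from 1578 to 1302, 2590, 1526 and 1431 in that order. The 1 call of a 12 h component in DRF became 2 with library weights (200 and 2108 over all genes). In NRF the 1 call became 2 with library weights and 3 on the deposited scores. It became 0 with total-count scaling, without the 2 libraries of lowest weight or without the ZT0 libraries. Over all genes the NRF calls went from 534 to 827, 1581, 513, 55 and 26 in that order. With 1 library left out, the average gave 0 to 3 calls (0 without replicate 1 of DRF at ZT20), change over time in DRF 3 to 7 (3 without replicate 2 of DRF at ZT12), the difference in 24 h rhythm 1 to 2, and the 12 h component in NRF 0 to 2.

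With 2 within-group components as covariates, added after the data were seen, 13 comparisons at single times were called, 7 changes over time in NRF, 5 differences in rhythm, 3 differences of ZT24 from ZT0 in DRF, and 2 (DRF) and 3 (NRF) 12 h components. Over all genes these calls rose too, from 3103 to 13022 at single times and from 2363 to 6273 for change over time in NRF. Differences in rhythm went from 1578 to 3610, and differences of ZT24 from ZT0 in DRF from 33 to 2379. Calls of a 12 h component went from 200 to 1918 in DRF and from 534 to 2896 in NRF. The 2 covariates are orthogonal to the groups by construction, so they shrink the residual spread and leave the estimates as they were. With the replicate number as a block the average gave 1 call (1803 over all genes) and single times 5 (2860 over all genes). Same-numbered libraries had a mean correlation of -0.0166 in their deviations from the group means, other pairs 0.0058, and 8 of 56 libraries correlated best with their own number, so the numbers are not taken as pairs. The reads behind the lowest gene, Myf5, were 49 to 137 per library, and what size of difference this depth can show was not tested.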
